A study of Arabidopsis thaliana with 59 samples.

Results

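The genes described here are the nuclear genes of Arabidopsis thaliana for the 2 photosystems and their light-harvesting antennae, given as a list of 47 loci. The list holds 6 LHCA genes for the antenna of photosystem I (PSI), 15 LHCB genes for the antenna of photosystem II (PSII), PSBS, 12 PSI subunit genes, 10 PSII subunit genes and 3 genes of the electron carriers between the photosystems. Of the 47 loci, 39 had a row in a table of 20728 loci: 5 LHCA, 8 LHCB, PSBS, all 12 PSI, all 10 PSII and all 3 carrier genes. LHCA2, LHCB1.1 to LHCB1.5, LHCB2.1 and LHCB2.2 were not analysed here, so the LHCB1 genes of the main PSII antenna are missing from every LHCB value below.

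Photosystem II takes electrons from water and photosystem I passes them on to ferredoxin, with the cytochrome b6f complex and plastocyanin between them. The LHCA and LHCB proteins bind most of the chlorophyll of the leaf and hand the absorbed light energy to the photosystem cores, and PSBS lets the PSII antenna shed excess energy as heat. Core proteins of both photosystems are encoded in the chloroplast genome, so the nuclear genes described here supply the antennae and the outer subunits, and transcripts of many antenna genes follow light and the time of day.

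RNA came from rosette leaves of 10 accessions described as spring annuals (Col, Ler, Ws-2, Ts-1, HR-5, Bur-0, SQ-8, NFA-10, KNOX-18 and CIBC-17), each under a wet and a dry treatment and all in a 10 h photoperiod. Wet pots stayed near 90% of their available water, and the dry treatment lowered this by daily steps to about 50% on day 5, a mild and slow drying of growing plants. Each of the 20 groups had 3 arrays numbered as biological replicates, apart from KNOX-18 dry with 2, which gave 59 arrays (30 wet and 29 dry). No plant age and no harvest time are given in the labels.

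Values are log2 signals, 1 per locus and array, and ranged from 3.066 to 14.06 over the table. Array medians lay between 5.496 and 5.621. NFA-10 wet 1, Ler wet 1 and Ler wet 3 were the arrays least like the rest of their own groups (mean r of 0.962, 0.949 and 0.931), and the mean of the 39 genes was lowest on NFA-10 wet 1 (10.80), Bur-0 wet 1 (11.10) and Bur-0 wet 2 (11.26). Col wet 3 carries the stock number of Ws-2 in its labels, while its title says Col, and it was used as Col. Over the 200 loci with the smallest p among accessions it correlated with the other Col arrays at r = 0.975. With the other accessions r was 0.599 to 0.689. Those loci came from the fit that already counted it as Col, so these r values are no independent check of the label. Of 3 mesophyll markers only CA1, the gene of a chloroplast carbonic anhydrase, had a row; it ranged from 6.74 to 12.39 in wet and from 10.00 to 13.00 in dry leaves and rose by 0.87 ± 0.24 (limma adjusted p = 0.0048). Array means of root, flower and seed markers stayed between 3.68 and 5.37, near the bottom of the scale, and those of guard cell markers between 4.18 and 5.14. Phloem markers ranged from 8.26 to 10.46, and 1 of 2 phloem and 1 of 3 guard cell markers rose with drying, against 15.5% of all loci. In whole leaves, fewer cells of a type and less RNA per cell cannot be told apart, and the part of these markers in the results was not tested.

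Drying was compared first as the mean over the 10 accessions of dry minus wet. Photosystem genes were mostly a little higher in dry leaves: 24 of the 39 rose, LHCB4.3 alone fell, and 14 did not pass an adjusted p of 0.05 (limma, Benjamini-Hochberg over all 20728 loci). Over all loci 29.3% passed in either direction, 15.5% higher and 13.8% lower in dry leaves. The median difference was 0.21 for the 39 genes and -0.003 for all loci, and 37 of the 39 differences were above 0. Genes that rose were 6 of 8 LHCB, 6 of 10 PSII, 6 of 12 PSI, 3 of 5 LHCA and 2 of 3 carrier genes, and PSBS. With the replicate number as a block, 26 rose and 1 fell, against 17.9% of all loci higher and 16.3% lower. Without the 3 arrays named above as least like their groups, 17 genes rose and 1 fell, and without Bur-0 and NFA-10, the accessions with the largest shifts, 14 rose and 1 fell. Bur-0 and NFA-10 were picked by their shifts in these same data, which favours a lower count without them. The shares of all loci are not given for these settings, so a general loss of calls with fewer arrays cannot be told apart.

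**Figure D1:**
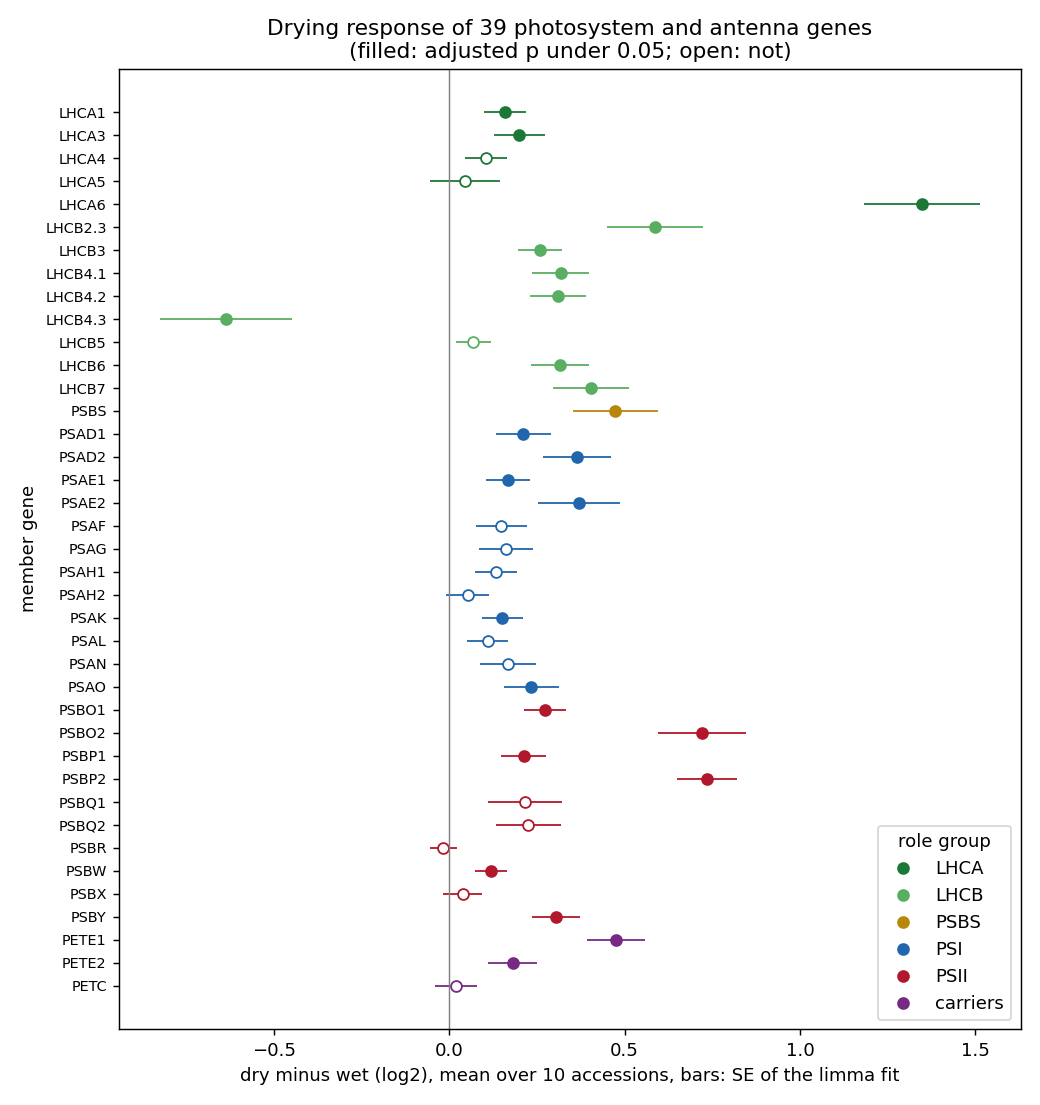
Dry minus wet (log2, horizontal axis) of each of the 39 genes as the mean over 10 accessions, with bars for the SE of the limma fit; filled points passed an adjusted p of 0.05 and colours mark role groups. LHCA6 stands highest at 1.35, LHCB4.3 is the only filled point below 0 at -0.64, and most others lie between 0 and 0.5.

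These sizes were also read beside the level of the signal. 28 of the genes had a mean of 12 or more, in the upper part of a table that reached 14.06. Their median difference was 0.17 and 16 rose. LHCA3 had the same value, 13.61, on 8 arrays, though it reached 13.85 on Col dry 2. The 11 genes with a mean under 12 had a median difference of 0.47, with 8 higher and 1 lower. Whether the smaller shifts of the bright genes reflect an upper limit of the signal was not tested.

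In the PSI antenna the response was carried by LHCA6 (AT1G19150), a scarce antenna protein that, with LHCA5, links PSI to the NADH dehydrogenase-like complex of cyclic electron flow. Its wet values ran from 6.00 (Bur-0 wet 2) over a median of 8.64 to 9.99 (HR-5 wet 1), and its dry values from 8.99 over 9.69 to 11.01. The groups overlapped, but the lowest dry array lay above the median of the wet ones. LHCA6 rose by 1.35 ± 0.16 (SE), a 2.55-fold change (adjusted p = 4.15e-08), and was higher in dry leaves of 10 of 10 accessions. It ranked 70 of 20728 loci by the size of its difference. Its partner LHCA5 (AT1G45474) did not pass, with 0.04 ± 0.10 (adjusted p = 0.786).

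The abundant LHCA proteins, which form the crescent of antenna bound to the PSI core, moved little. LHCA3 (AT1G61520) had wet values of 12.35, 13.57 and 13.78 (lowest, median, highest) and dry values of 12.89, 13.62 and 13.85, and rose by 0.20 ± 0.07 (adjusted p = 0.0335). LHCA1 (AT3G54890) went from 12.10, 13.07 and 13.31 to 12.49, 13.17 and 13.32, a rise of 0.16 ± 0.06 (adjusted p = 0.0395). Wet and dry values of both genes overlapped almost completely, with the lowest wet values on NFA-10 wet 1 and Bur-0 wet 1. LHCA4 (AT3G47470), with 0.10 ± 0.06, did not pass (adjusted p = 0.194). Leaving out any 1 of 20 arrays ended the call of LHCA1 (0.13 to 0.18, adjusted p up to 0.0667), and any 1 of 8 that of LHCA3.

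Among PSII antenna genes, LHCB2.3 (AT3G27690) codes for a protein of the mobile antenna trimers that can move between the photosystems in state transitions. It had wet values of 8.92, 11.44 and 12.38 and dry values of 10.21, 11.94 and 12.81. The lowest wet value was that of NFA-10 wet 1, and the groups overlapped over most of their range. LHCB2.3 rose by 0.59 ± 0.14 (1.503-fold, adjusted p = 0.000935), with a positive difference in 10 of 10 accessions from 0.06 in Ws-2 to 1.57 in NFA-10. LHCB3 (AT5G54270), a part of trimers tightly bound to PSII, rose by 0.26 ± 0.06 (adjusted p = 0.00124), from 11.88, 13.12 and 13.35 in wet to 12.45, 13.33 and 13.48 in dry leaves.

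The monomeric antenna proteins that join the trimers to the core are CP29 (LHCB4), CP26 (LHCB5) and CP24 (LHCB6). The CP29 gene LHCB4.1 (AT5G01530) had wet values of 11.52, 13.17 and 13.40 and dry values of 12.58, 13.38 and 13.59, and LHCB4.2 (AT3G08940) had 11.14, 12.52 and 13.02 against 11.90, 12.74 and 13.09. Both were lowest on NFA-10 wet 1 when wet and on Ts-1 dry 2 when dry. LHCB4.1 rose by 0.32 ± 0.08 (adjusted p = 0.00226) and LHCB4.2 by 0.31 ± 0.08 (adjusted p = 0.00233). LHCB6 (AT1G15820) rose by 0.32 ± 0.08 in 10 of 10 accessions (adjusted p = 0.00296), whereas LHCB5 (AT4G10340) had a difference of 0.07 ± 0.05 that did not pass (adjusted p = 0.335).

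LHCB4.3 (AT2G40100), the third CP29 gene, whose protein lacks part of the C-terminal region, was the one gene that fell. Its wet values were 8.62, 9.41 and 10.93, and its dry values 7.62, 8.86 and 10.61. The ranges overlapped widely, with Ws-2 replicate 1 highest under both treatments and replicate 3 arrays lowest. LHCB4.3 fell by 0.64 ± 0.19 (adjusted p = 0.00831) and was lower in dry leaves of 10 of 10 accessions, with differences from -0.07 in NFA-10 to -1.11 in Ler. LHCB7 (AT1G76570), a rare antenna-like protein gene with a mean of 6.84, rose by 0.40 ± 0.11 (adjusted p = 0.00389).

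PSBS (AT1G44575), the sensor of lumen acidity that switches the PSII antenna into heat dissipation, had wet values of 10.16, 11.26 and 12.33 and dry values of 10.98, 11.84 and 12.44. The dry median lay well above the wet one and the ranges overlapped. PSBS rose by 0.47 ± 0.12 (1.39-fold, adjusted p = 0.00263) in 10 of 10 accessions, by 0.04 in Ws-2 up to 0.95 in Bur-0.

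In PSI, the genes that rose were those of PSAD and PSAE, subunits of the stromal side where ferredoxin docks, and also PSAO and PSAK. PSAD2 (AT1G03130) had wet values of 10.54, 12.21 and 12.66 and dry values of 11.75, 12.40 and 12.79, and PSAE2 (AT2G20260) had 9.47, 11.56 and 12.24 against 10.90, 11.79 and 12.27. The highest wet and dry arrays of each gene lay close together, and the wet arrays reached further down. PSAD2 rose by 0.36 ± 0.10 (adjusted p = 0.00324) and PSAE2 by 0.37 ± 0.12 in 10 of 10 accessions (adjusted p = 0.0134). PSAO (AT1G08380), a small subunit needed for state transitions, rose by 0.23 ± 0.08 (adjusted p = 0.0210), from 11.67, 12.91 and 13.19 to 12.16, 13.04 and 13.31. PSAE1 (AT4G28750) rose by 0.17 ± 0.06 (adjusted p = 0.0365), with wet values of 11.48, 12.81 and 13.10 and dry values of 12.20, 12.92 and 13.11, and PSAD1 and PSAK also passed. PSAF and PSAN, which bind plastocyanin on the lumen side, and PSAG, PSAH1, PSAH2 and PSAL did not pass, with differences between 0.05 and 0.17. Those of PSAN (0.17), PSAG (0.16) and PSAF (0.15) were about as large as those of PSAE1 (0.17) and PSAK (0.15), which passed. Leaving out 1 array ended the call for PSAK (42 such arrays), PSAD1 (12) and PSAE1 (10).

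In PSII, the largest rises were those of PSBP2 and PSBO2, genes of subunits that shield the manganese cluster of water oxidation. PSBO1, PSBP1, PSBQ1 and PSBQ2, the other genes of such subunits, had differences of 0.21 to 0.27, below the 0.30 of PSBY. PSBO2 (AT3G50820), the minor form of the manganese-stabilising protein, had wet values of 9.59, 11.27 and 12.14 and dry values of 11.04, 11.94 and 12.68. NFA-10 wet 1 was lowest, and the dry arrays began only slightly below the wet median. PSBO2 rose by 0.72 ± 0.13 (1.65-fold, adjusted p = 2.29e-05), and the major form PSBO1 (AT5G66570) by 0.27 ± 0.06 (adjusted p = 0.000506), from 12.12, 13.06 and 13.42 to 12.45, 13.32 and 13.54. PSBP2 (AT2G30790), a copy of the extrinsic protein gene PSBP1, went from 4.79, 5.55 and 6.43 to 5.35, 6.25 and 8.11, where Col dry 1 was highest. It rose by 0.74 ± 0.09 (1.66-fold, adjusted p = 1.96e-08) in 10 of 10 accessions. Its values lay about the array medians, and the part of background in them was not tested.

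PSBY (AT1G67740), a small membrane subunit beside cytochrome b559, rose by 0.30 ± 0.07 (adjusted p = 0.000570), from 11.10, 12.16 and 12.63 to 11.78, 12.43 and 12.81. PSBP1 rose by 0.21 ± 0.07 (adjusted p = 0.0112) and the small subunit gene PSBW by 0.12 ± 0.05 (adjusted p = 0.0485), a call that leaving out any 1 of 34 arrays ended. The extrinsic protein genes PSBQ1 and PSBQ2, with 0.22 and 0.23, did not pass (adjusted p = 0.119 and 0.0641), and neither did PSBX with 0.04. PSBR (AT1G79040), whose protein helps to anchor the extrinsic subunits, had wet values of 12.99, 13.47 and 13.64 and dry values of 12.53, 13.46 and 13.57, and its difference of -0.02 ± 0.04 did not pass (adjusted p = 0.796).

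Of the carriers, PETE1 (AT1G76100), the minor plastocyanin, had wet values of 8.76, 10.28 and 11.11 and dry values of 9.93, 10.61 and 11.34. Its dry values began higher and the groups overlapped above that. PETE1 rose by 0.47 ± 0.08 (1.39-fold, adjusted p = 2.29e-05) in 10 of 10 accessions. The major plastocyanin PETE2 (AT1G20340) rose by 0.18 ± 0.07 (adjusted p = 0.0442), from 11.95, 12.99 and 13.44 to 12.32, 13.12 and 13.49, and leaving out any 1 of 32 arrays ended that call. PETC (AT4G03280), the Rieske iron-sulphur protein of the cytochrome b6f complex, had values of 11.74, 12.62 and 13.08 in wet and 11.93, 12.58 and 12.96 in dry leaves and a difference of 0.02 ± 0.06 that did not pass (adjusted p = 0.856).

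Several subunits are encoded by gene pairs, and the drying response of the copies was compared over the 10 accessions for 8 pairs by an exact permutation test that flips signs (two-sided, smallest possible p = 0.00195), adjusted over the 8. PSBP2 responded more than PSBP1 by a mean of 0.52 (SD 0.28, n = 10 accessions), PSBO2 more than PSBO1 by 0.45 (SD 0.22) and PSAD2 more than PSAD1 by 0.15 (SD 0.10), each in 10 of 10 accessions (exact permutation p = 0.00195, adjusted p = 0.00521). PSAE2 responded more than PSAE1 by 0.20 (SD 0.19) in 9 of 10 accessions (exact p = 0.0176, adjusted p = 0.0281). PETE2 responded less than PETE1 by a mean difference of -0.29 (SD 0.28), in 9 of 10 accessions (exact p = 0.0117, adjusted p = 0.0234). Not all of these differences held within single replicate numbers, where fewer arrays enter. In number 1 alone all 5 passed. In number 2 alone PSAD2 minus PSAD1 was 0.15 (exact permutation, adjusted p = 0.175), PSAE2 minus PSAE1 0.25 (adjusted p = 0.0521) and PETE2 minus PETE1 -0.25 (adjusted p = 0.177). In number 3 alone PSAD2 minus PSAD1 was 0.062 (adjusted p = 0.583), PSAE2 minus PSAE1 0.079 (adjusted p = 0.583) and PSBO2 minus PSBO1 0.27 (adjusted p = 0.286), and only the PSBP and PETE differences passed.

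On the signal scale, which does not rank genes by transcript level, PSBP1, PSBO1, PSAE1 and PETE2 had means of 12.77 to 13.14, in the range where shifts were smaller, while the copies that responded more had means of 5.87 to 11.58; PSAD1 and PSAD2 lay close together at 12.06 and 12.19. For the other 3 pairs the test did not pass: PSAH2 minus PSAH1 was -0.08 and ranged from -0.20 to 0.16 over the accessions (exact p = 0.0781, adjusted p = 0.104), PSBQ2 minus PSBQ1 was 0.01, from -0.25 to 0.32, and LHCB4.2 minus LHCB4.1 was -0.01, from -0.22 to 0.18 (both exact p = 0.869, adjusted p = 0.869). The copies are close in sequence, and the assignment of probes to loci is not given in the sources used here, so signal shared between copies cannot be told apart from signal of each.

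**Figure D2:**
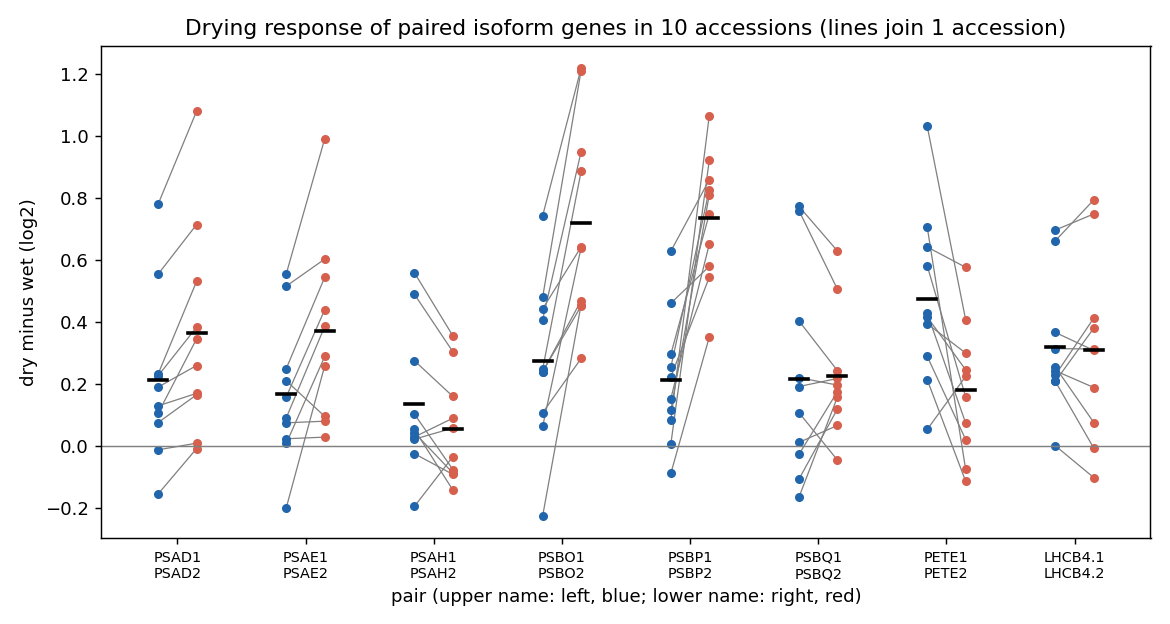
Dry minus wet (log2, vertical axis) of both copies of 8 gene pairs, with 1 point per accession, a line joining the copies within an accession and a black bar at the mean. All 10 lines rise from PSAD1 to PSAD2, from PSBO1 to PSBO2 and from PSBP1 to PSBP2, and 9 of 10 fall from PETE1 to PETE2.

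The antenna, PSI and PSII groups were then compared within each accession by the mean of their measured members per array, as a description without a test. The LHCA mean was higher in dry leaves of 10 of 10 accessions, by 0.37 on average (SD over accessions 0.23), from 0.13 in Ws-2 to 0.80 in Bur-0. The PSII mean was higher in 9 of 10 by 0.28 (SD 0.19), from -0.03 in Ts-1 to 0.59 in Bur-0. The PSI mean was higher in 9 of 10 by 0.19 (SD 0.22), from -0.09 in Ts-1 to 0.57 in NFA-10, and the LHCB mean in 8 of 10 by 0.20 (SD 0.24), from -0.04 in Ts-1 to 0.67 in NFA-10.

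The shifts of the groups were also set against one another within each accession. The shift of PSI was smaller than that of PSII in 10 of 10 accessions, with a mean difference of -0.09 (SD 0.05). The PSII mean holds PSBO2 (0.72) and PSBP2 (0.74), the largest rises among its genes, and the order without them was not computed. That of LHCA was larger than the shift of PSI in 10 of 10 accessions, by 0.18 (SD 0.08), from 0.10 to 0.33. The order of LHCA and PSI rested on LHCA6: without it the mean of the other 4 LHCA genes was higher in dry leaves of 8 of 10 accessions by 0.13 (SD 0.16), and smaller than the PSI shift in 7 of 10, by a mean difference of -0.06 (SD 0.09). By the median of its genes the LHCA response (0.16) also lay at that of PSI (0.16), below PSII (0.22) and LHCB (0.31). LHCB and PSI differed by 0.01 (SD 0.07), with LHCB larger in 6 of 10. The LHCB mean holds LHCB4.3, the gene that fell, and without it LHCB was larger than PSI in 10 of 10 accessions, by 0.13 (SD 0.06). Both means without 1 gene were added after seeing the data.

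Bur-0 and NFA-10 stood out through low wet arrays. In Bur-0 the PSI mean was 12.06 ± 0.48 (SD, n = 3) wet and 12.63 ± 0.09 dry, and the LHCA mean 10.92 ± 0.42 wet and 11.73 ± 0.19 dry. In NFA-10 the PSI mean was 12.14 ± 0.74 wet and 12.71 ± 0.06 dry. The spread was wider among wet than among dry arrays of both accessions, and replicate 1 was the lowest wet array for PSI in each. Leaving out NFA-10 wet 1 brought the NFA-10 shift from 0.57 to 0.16 for PSI, from 0.67 to 0.35 for LHCB, from 0.70 to 0.32 for LHCA and from 0.57 to 0.24 for PSII. Leaving out NFA-10 wet 3 instead raised it to 0.87 for PSI, 0.90 for LHCB, 0.99 for LHCA and 0.83 for PSII. Ts-1 had shifts below 0 in LHCB, PSI and PSII, as Ws-2 had in LHCB (-0.01), and Ts-1 dry 2 was low: without it the PSI shift went from -0.09 to 0.08 and the PSII shift from -0.03 to 0.09. Without Ts-1 dry 3 instead, the PSI shift was -0.26 and the PSII shift -0.18.

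**Figure D3:**
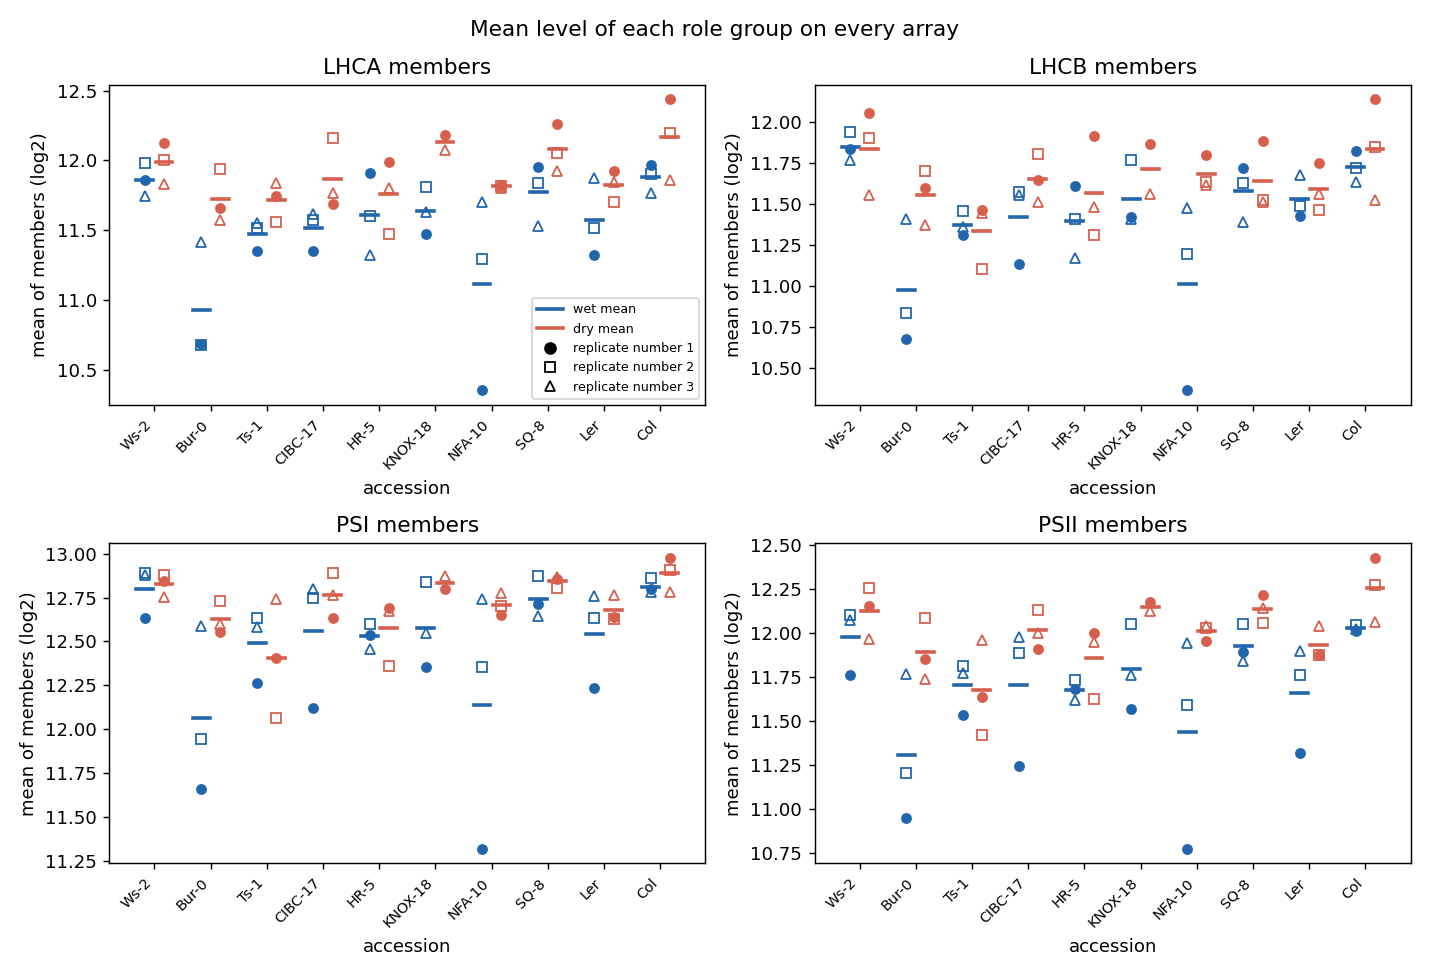
Mean log2 value of the LHCA, LHCB, PSI and PSII genes on every array (vertical axis) in each accession, with blue for wet and red for dry, bars at group means and symbols for replicate numbers. Wet arrays of Bur-0 and NFA-10 reach furthest down, and in most accessions wet replicate 1 is the lowest point for PSI and PSII.

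Tested gene by gene within each accession, 5 genes passed, all of them higher in dry leaves of Bur-0, where 2.72% of all loci passed and 1.74% were higher. LHCA6 had wet values of 7.06, 6.00 and 8.16 and dry values of 9.55, 10.05 and 9.23 in Bur-0, so that every dry array lay above every wet one, and it rose by 2.54 ± 0.51 (limma adjusted p = 0.00651). PETE1 rose there by 1.03 ± 0.26 (adjusted p = 0.0255), PSBO1 by 0.74 ± 0.19 (adjusted p = 0.0269), PSAD2 by 1.08 ± 0.30 (adjusted p = 0.0415) and PSBY by 0.74 ± 0.21 (adjusted p = 0.0465). In the other 9 accessions 0 of 39 passed, against 4.95% of all loci in SQ-8 (2.60% higher), 0.878% in Ws-2, 0.704% in Ler, 0.651% in HR-5, 0.608% in Col, 0.367% in Ts-1, 0.154% in NFA-10, 0.130% in KNOX-18 and 0.0627% in CIBC-17.

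With the replicate number as a block, 19 tests passed over the 10 accessions, against 2.49% of the tests of all loci: 11 in Bur-0 and 3 in NFA-10, all higher, PSBP2 higher in Col, PSBR lower in Ts-1 (-0.48 ± 0.12, adjusted p = 0.0466), and LHCB4.3 lower in SQ-8, Ler and Col (-0.96, -1.11 and -0.91, each ± 0.23). The counts without the block rested on single arrays. The total was 1 without Bur-0 dry 1, Bur-0 dry 2 or Bur-0 wet 2, 2 without Bur-0 wet 1, 15 without NFA-10 wet 1, 17 without Bur-0 wet 3 and 29 without NFA-10 wet 3.

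**Figure D4:**
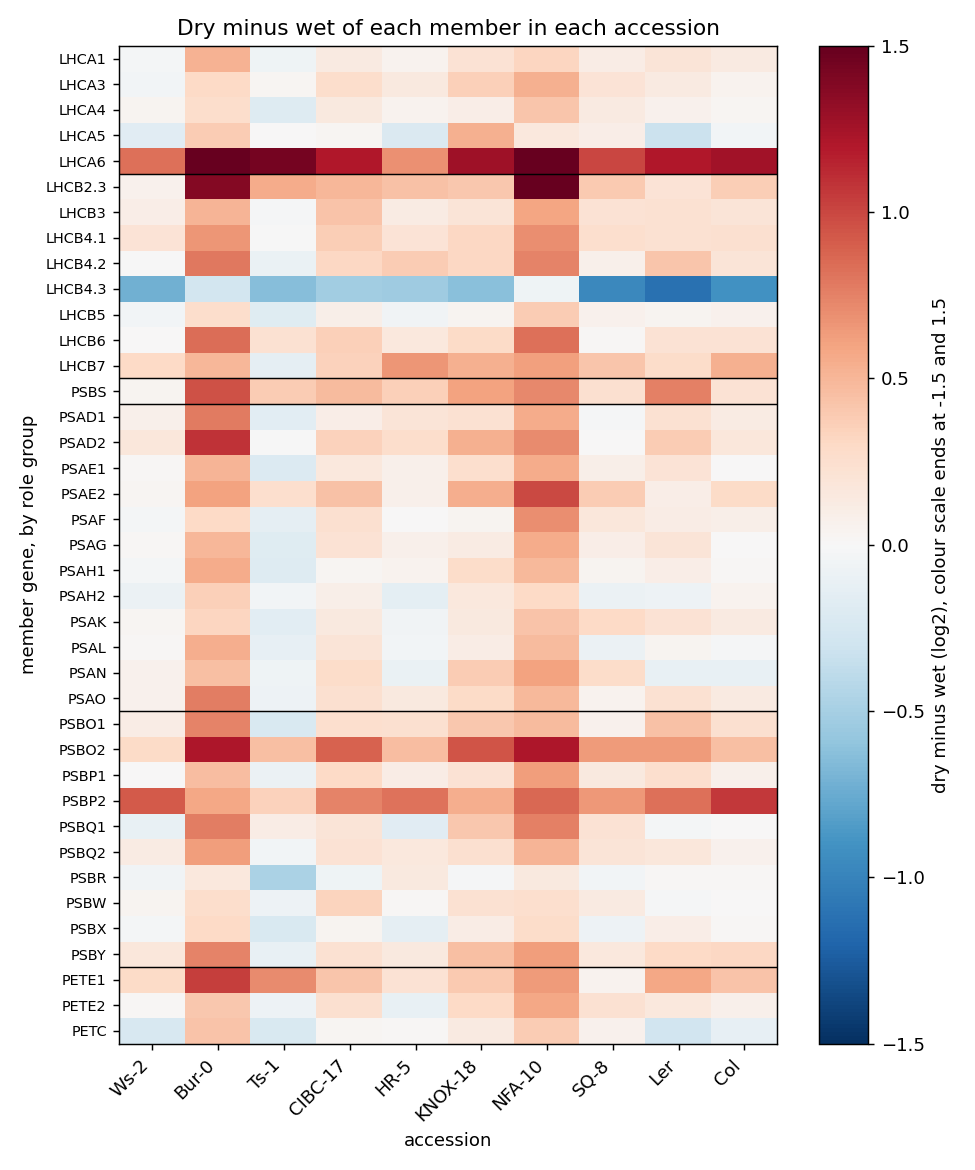
Dry minus wet (log2, colour, with the scale ending 1.5 to either side of 0) of each gene (rows, grouped by role) in each accession (columns). LHCA6 is red and LHCB4.3 blue in all 10 columns, the Bur-0 and NFA-10 columns are red for nearly every gene, and Ts-1 is pale blue for most PSI and PSII genes; the LHCA6 value of 2.54 in Bur-0 lies beyond the end of the scale.

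Whether the drying response of a gene differed among accessions was tested directly. 0 of the 39 genes passed (moderated F test in limma, adjusted p under 0.05), where 0.270% of all loci did, and at an unadjusted p under 0.05 there was 1, against 8.48% of all loci. The adjusted count was also 0 with a variance trend and robust fit, and it was 1 without Ts-1 dry 3. The smallest adjusted p-values were those of PSBR (0.554), PSBO1 (0.642), PETC (0.709), PSAL (0.765), PSAH1 (0.767) and LHCB4.2 (0.816). In Ts-1, PSBR had wet values of 13.51, 13.54 and 13.52 and dry values of 13.07, 12.53 and 13.54, so that 2 of 3 dry arrays were low, while in the other 9 accessions its differences lay between -0.07 and 0.15.

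Levels were also compared among accessions by the average of wet and dry leaves, which does not set them apart from the drying response. Averaged over wet and dry, 19 of 39 genes passed the test among the 10 accessions, against 41.3% of all loci. LHCB2.3 had the widest range, 1.86, from 10.42 in Bur-0 to 12.29 in Ws-2 (moderated F test in limma, adjusted p = 9.88e-06). PSBP2 ranged from 5.48 in Bur-0 to 6.74 in Col (adjusted p = 0.000102), LHCA5 from 8.87 in Bur-0 to 10.01 in Col (adjusted p = 0.000231), and PETE1 from 10.00 in Bur-0 to 11.11 in Ws-2 (adjusted p = 3.44e-05). LHCA6 ranged from 8.34 in Bur-0 to 9.69 in Col (adjusted p = 0.0228) and PSBO2 from 11.01 in Bur-0 to 12.14 in Col (adjusted p = 0.0110). All 6 were lowest in Bur-0 by this average, which holds its low wet arrays. In dry leaves HR-5 lay below Bur-0 for LHCB2.3 (11.05 and 11.11), LHCA5 (8.97 and 9.06) and PETE1 (10.35 and 10.52). Ts-1 (10.47) and NFA-10 (10.49) also lay below Bur-0 for PETE1. For PSBO2 Ts-1 (11.52) and HR-5 (11.59) lay below Bur-0 (11.62). LHCA6 in Bur-0 averaged 7.07 in wet and 9.61 in dry leaves. Differences in transcript level and sequence differences under the probes cannot be told apart. With the replicate number as a block 28 passed, against 52.5% of all loci. Without the block the count was 10 without Bur-0 wet 1, 11 without Bur-0 wet 2, and 12 without Col dry 1, without Col wet 3 or without Bur-0 dry 3.

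The replicate number was examined as a possible batch because it runs through all groups. Clock genes differed sharply between the numbers: the morning genes CCA1 and LHY were lower in replicate 3 than in replicate 1, with differences of -3.39 ± 0.12 and -3.70 ± 0.12 (limma adjusted p = 5.67e-23 and 1.26e-24), and the later-phased TOC1 (0.83), PRR7 (0.95), PRR5 and GI (1.84) were higher. In wet leaves CCA1 averaged 9.35 ± 0.42, 7.41 ± 0.45 and 5.91 ± 0.74 (SD, n = 10) in numbers 1, 2 and 3. All 6 measured clock genes passed for the number. In the fit without the number 0 of 6 passed for drying, against 29.3% of all loci, with a difference of -0.70 ± 0.49 for LHY (adjusted p = 0.304). With the number as a block 4 of 6 passed, where 17.9% of all loci were higher and 16.3% lower. LHY was lower in dry leaves (-0.70 ± 0.10, adjusted p = 2.56e-07), and GI (0.47 ± 0.11, adjusted p = 0.000463), TOC1 (0.33 ± 0.10, adjusted p = 0.0104) and PRR7 (0.34 ± 0.11, adjusted p = 0.00959) were higher. CCA1 did not pass in either fit (0.04, adjusted p = 0.964 and, with the block, 0.815). What the numbers stand for is not stated, so the hour of harvest and other circumstances tied to a number cannot be told apart here.

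Of the 39 genes 16 passed for the number, against 30.0% of all loci. 12 were higher in number 3 than in number 1 (13.1% of all loci) and 4 were lower (3517 of the 20728 loci). The 4 lower ones were LHCB4.3 at -1.33 ± 0.09 (adjusted p = 2.19e-14), PSBS at -0.66 ± 0.11 (adjusted p = 1.64e-05), LHCA5 at -0.50 ± 0.09 (adjusted p = 0.000214) and LHCB7 at -0.52 ± 0.11 (adjusted p = 0.000663). Their deviations from the group means followed those of CCA1 over the 59 arrays, at r = 0.91 for LHCB4.3, 0.73 for PSBS, 0.66 for LHCA5 and 0.60 for LHCB7, as a description over arrays that share groups and replicate numbers. These 4 genes were picked as lower in number 3, as CCA1 was, and the deviations keep the difference between numbers. A positive r was therefore built into the choice. Among the higher ones were PSAE2 at 0.60 ± 0.11 (adjusted p = 6.76e-05) and PSBQ2 at 0.46 ± 0.08 (adjusted p = 7.56e-05).

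LHCB4.3 moved with both factors. It averaged 10.15 ± 0.43, 9.36 ± 0.44 and 9.04 ± 0.30 (SD, n = 10) in wet leaves of numbers 1, 2 and 3, and 9.68 ± 0.45, 8.83 ± 0.44 (n = 9) and 8.14 ± 0.40 in dry leaves. Each dry mean lay below the wet mean of the same number, while the number moved it further than drying did.

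Because of this, drying was also fitted within each number. In number 1 (20 arrays) 29 of 39 genes rose, against 9.71% of all loci, in number 2 (19 arrays) 5 rose, against 10.3%, and in number 3 (20 arrays) 2 rose, against 1.97%. LHCB4.3 fell in each. The median difference of the 39 genes was 0.46, 0.06 and 0.09 in numbers 1, 2 and 3. LHCA6 rose in all 3, by 1.47 ± 0.29, 1.61 ± 0.34 and 1.003 ± 0.12 (limma adjusted p = 0.00572, 0.00973 and 0.00294), and PSBP2 by 1.06 ± 0.15, 0.74 ± 0.12 and 0.44 ± 0.09 (adjusted p = 0.00122, 0.00255 and 0.0212). LHCB4.3 fell by 0.47 ± 0.13, 0.53 ± 0.12 and 0.90 ± 0.09 (adjusted p = 0.0281, 0.0115 and 0.00101). PSBO2, PSBS and LHCB7 rose in numbers 1 and 2. For the other genes called over all arrays, number 2 and number 3 alone gave no call, and LHCB4.1 shows the pattern: its wet mean was 12.67 ± 0.51 in number 1, 13.13 ± 0.25 in number 2 and 13.25 ± 0.08 in number 3, while its dry mean was 13.28 ± 0.20, 13.29 ± 0.28 and 13.42 ± 0.08. A test of the difference in response between the numbers, added after these values had been seen, passed for 7 of 39 genes, against 6.32% of all loci, and for 25 at an unadjusted p under 0.05, against 21.3%.

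**Figure D5:**
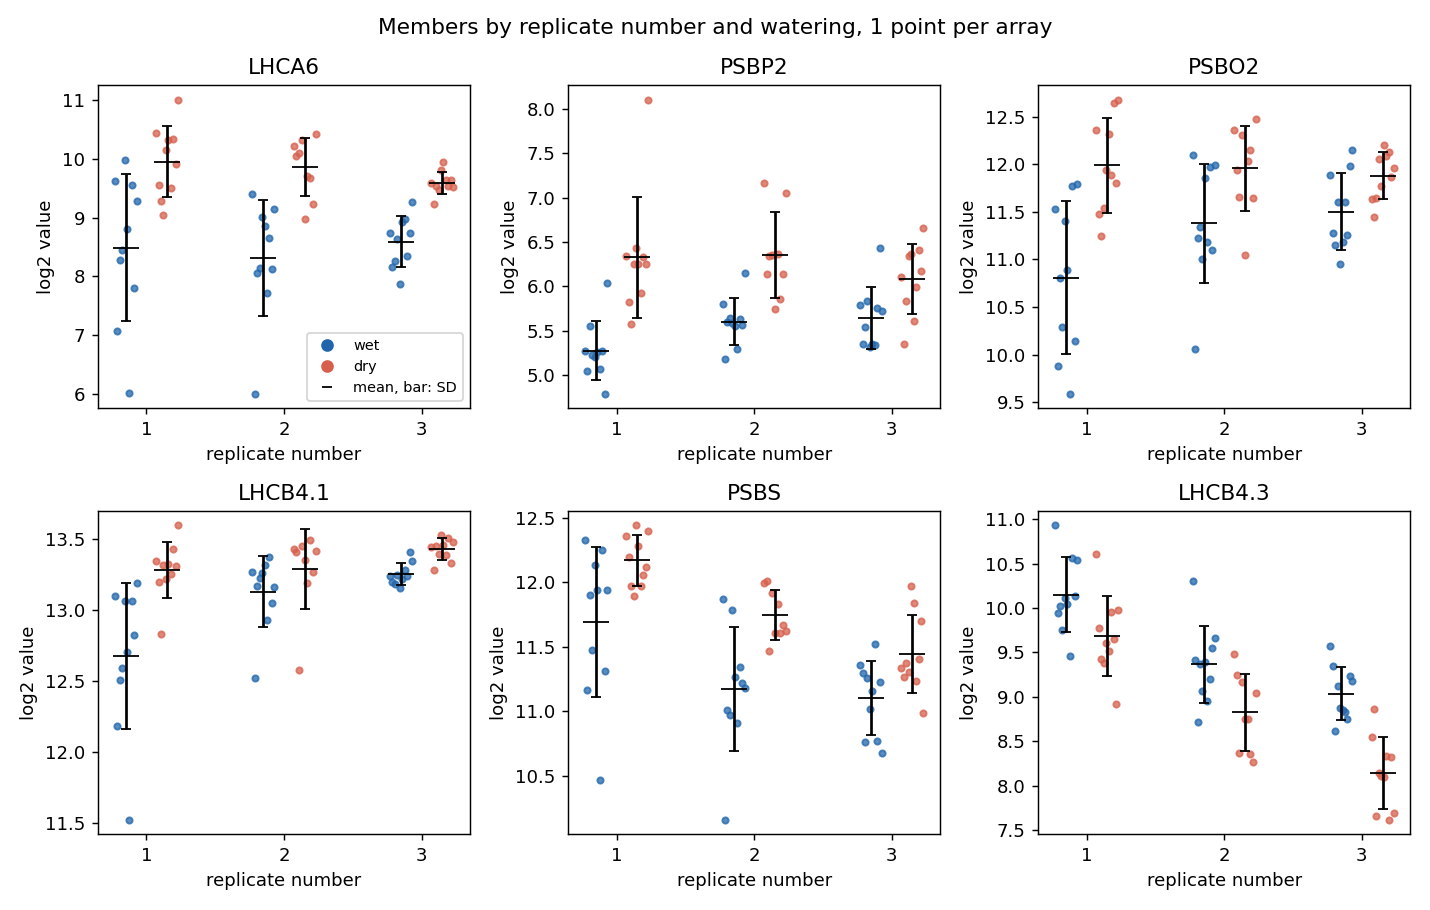
Log2 values of 6 genes by replicate number and watering, with 1 point per array, blue for wet and red for dry, and bars for mean and SD. LHCA6 and PSBP2 are higher and LHCB4.3 is lower in dry leaves at every number, whereas LHCB4.1 has low wet arrays mainly at number 1.

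Within groups the genes varied together. Over the 59 arrays the deviations from group means had a median r of 0.73 over the 741 pairs of the 39 genes, with 532 pairs at 0.5 or more and 66 under 0. LHCB6 and PSAO were the closest pair (r = 0.94), while LHCB4.3 (median r of -0.14), LHCB7 (0.06), LHCA5 (0.14) and PSBS (0.15) stood apart. The 5 other loci most like the mean LHCB deviation were AT4G01150 (CURT1A, r = 0.897) and AT2G46820 (CURT1B, r = 0.883), genes of thylakoid curvature proteins, PRK (r = 0.876), which codes for phosphoribulokinase of the Calvin cycle, GUN4 (r = 0.868), a regulator of magnesium chelatase, and AT1G75350 (r = 0.865). These r values are descriptions over arrays that share groups and replicate numbers.

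Other genes of the pathway were read from lists of processes that serve the photosystems. Of 17 chlorophyll synthesis genes 15 rose and 0 fell, against 15.5% and 13.8% of all loci, with a median difference of 0.52. HEMA1, the glutamyl-tRNA reductase at the entry of the pathway, rose by 0.94 ± 0.10 (limma adjusted p = 8.45e-10), the magnesium chelatase subunit gene CHLH by 0.69 ± 0.10 (adjusted p = 8.39e-07) and PORC, a protochlorophyllide oxidoreductase gene, by 0.64 ± 0.10 (adjusted p = 1.55e-06).

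Of 8 genes for antenna targeting and thylakoid protein phosphorylation 7 rose and 0 fell, against 15.5% and 13.8% of all loci, with a median of 0.50. CPSRP54 and CPSRP43, subunits of the particle that carries antenna proteins to the thylakoid, rose by 0.97 ± 0.11 (adjusted p = 3.52e-09) and 0.50 ± 0.07 (adjusted p = 1.75e-06), and TAP38, the phosphatase that reverses LHCII phosphorylation, by 0.56 ± 0.10 (adjusted p = 1.96e-05). The kinase gene STN7, which TAP38 opposes, did not pass, with 0.12 ± 0.11 (adjusted p = 0.444). The other kinase gene of the list, STN8, rose by 0.60 ± 0.11 (limma adjusted p = 5.80e-05) and the phosphatase gene PBCP by 0.31 ± 0.09 (adjusted p = 0.00819). STN7, STN8 and PBCP were chosen for naming after their values were seen.

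Of 10 genes of electron transfer and the ATP synthase 7 rose and 0 fell, against 15.5% and 13.8% of all loci, with a median of 0.27. Those that rose included the ferredoxin-NADP reductase genes FNR1 (0.43 ± 0.08, adjusted p = 4.92e-05) and FNR2 (0.64 ± 0.13, adjusted p = 0.000221) and the ATP synthase subunit gene ATPC1 (0.32 ± 0.06, adjusted p = 0.000103). Of 4 PSII assembly genes, with a median of 0.15, PSB27 (0.53 ± 0.09, adjusted p = 1.48e-05) and LPA1 (0.16 ± 0.05, adjusted p = 0.0232) rose, against 15.5% of all loci, and HCF136 did not pass (0.15 ± 0.10, adjusted p = 0.297). Among 6 genes of LHC-like stress proteins, with a median of 0.12, LIL3.2 rose (0.36 ± 0.09, adjusted p = 0.00129) and ELIP2, an early light-induced protein gene, fell (-0.30 ± 0.12, adjusted p = 0.0432). These calls, 1 of 6 in each direction, lay near the shares of all loci. OHP1 did not pass (0.22 ± 0.11, adjusted p = 0.128). ELIP1, picked for naming after its value was seen, was lower in 10 of 10 accessions without passing (-0.56 ± 0.36, adjusted p = 0.257), and it also differed between replicate numbers (number 3 minus number 1, -2.16 ± 0.24). With the number as a block both ELIP genes passed as lower, ELIP1 at -0.58 ± 0.20 (adjusted p = 0.0181) and ELIP2 at -0.31 ± 0.08 (adjusted p = 0.00119).

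Of 8 transcription factor genes known to act on antenna genes 4 rose and 0 fell, against 15.5% and 13.8% of all loci, with a median of 0.25. PIF3 rose by 0.32 ± 0.06 (adjusted p = 9.74e-05), PIF4, which acts in growth toward light and warmth, by 0.91 ± 0.21 (adjusted p = 0.00104), and the GATA factor gene GNC by 0.34 ± 0.09 (adjusted p = 0.00396). PIF4 also differed between replicate numbers, by 1.28 ± 0.14 (number 3 minus number 1, adjusted p = 2.34e-09). With the number as a block 5 rose and 1 fell, against 17.9% and 16.3% of all loci. GLK2, a factor that promotes chloroplast development, was also higher (0.27 ± 0.09, adjusted p = 0.0156) and HYH, a relative of HY5, was lower (-0.37 ± 0.12, adjusted p = 0.0127). GLK2 and HYH were chosen for naming after their values were seen. The block left the counts of the chlorophyll synthesis, antenna targeting, electron transfer and PSII assembly lists as they were. The lists were not fitted within single replicate numbers, where the rises of the 39 genes lay mainly in number 1.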

How the data were processed

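Leaf RNA of 59 samples was measured on arrays. The authors deposited 1 log2 value per locus and array for 20728 loci. MAS5 and RMA appear in the submitters' processing notes, with neither version nor role. Platform, probe assignment and build were not given in the sources used here, so no coordinates are printed. Values were used as deposited, and 0 columns of per-sample values were left unused. Arrays carry no read depth: their number limits the precision. The labels call the arrays biological replicates.

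Group and replicate came from sample titles. Each locus had 1 mean per group (20 means) in a fit by lmFit and eBayes of limma 3.58.1 under R 4.3.3, with 39 residual and 1.96 prior degrees of freedom. It gave drying over all accessions, drying in each, their interaction (moderated F test) and differences among accessions; another fit added the replicate number. P-values were adjusted by Benjamini-Hochberg over all loci, with a threshold of 0.05. Pairs of gene copies were compared by an exact sign-flip permutation test. The code was tested on simulated data.

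Genes were named through a RefSeq table (assembly TAIR10.1), in which 20546 loci were found; none of the 39 genes had the same values as another locus. The members and lists were chosen with earlier results of these data known. Values are given in full for up to 4 genes of each role group, for PSBS and for the carriers by smallest adjusted p for drying, up to 6 each for the interaction, the replicate number and the range among accessions, both copies of each pair, up to 3 of each pathway list, the clock genes and the 5 loci most like the LHCB mean. Other settings were array scaling, a filter on dim loci, the variance model, the replicate number, and leaving out arrays or accessions.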

Additional observations from a re-analysis of the deposited data

Results flagged for a closer look

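A test of whether the drying response differed between replicate numbers was added after the values within each number had been seen. For 7 of the 39 genes it passed (moderated F test in limma over the 3 numbers, adjusted p under 0.05), against 6.32% of all loci. At an unadjusted p under 0.05 there were 25, against 21.3% of all loci. The response in number 3 less that in number 1 was -0.43 for LHCA3 (adjusted p = 0.0218), -0.49 for LHCB4.2 (adjusted p = 0.0464), -0.38 for PSAD1 (adjusted p = 0.0461), -0.56 for PSAD2 (adjusted p = 0.0316), -0.51 for PSAO (adjusted p = 0.0272), -0.43 for PSBO1 (adjusted p = 0.0373) and -0.50 for PSBQ2 (adjusted p = 0.0122). The signed response in number 3 less that in number 1 was below 0 for 39 of the 39 genes, with a median of -0.38, and for 10401 of all 20728 loci. For LHCB4.3 this sign means a larger fall in number 3 (-0.90) than in number 1 (-0.47), not a smaller response. Since the 39 genes vary together within groups, these are not 39 separate observations. The calls rested on few arrays: with Bur-0 and NFA-10, picked by their shifts in these data, left out 1 gene passed, and leaving out 1 array at a time gave 2 (without CIBC-17 wet 1, NFA-10 wet 1 or HR-5 dry 1) to 13 genes (without HR-5 wet 1). CCA1 and LHY differed by over 3 on the log2 scale between the same numbers, and their part in this result was not tested.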

How the results depend on the processing

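Of the 25 genes called for drying, 15 passed in each of 77 fits to more than 1 replicate number, the reported one included: LHCA6, LHCB2.3, LHCB3, LHCB4.1, LHCB4.2, LHCB4.3, LHCB6, LHCB7, PSBS, PSAD2, PSBO1, PSBO2, PSBP2, PSBY and PETE1. Most often lost were PSAK (54 fits), PSBW (45), PETE2 (42) and LHCA1 (31). Leaving out 1 array at a time, drying changed 18 to 30 genes (17 to 29 higher, 1 lower), 1 to 29 within accessions, 12 to 18 by number, 10 to 28 among accessions, 0 to 1 in the interaction and 2 to 13 between numbers; leaving out 1 accession, 17 (Bur-0) to 28 (Ts-1) changed with drying. Calls within accessions were 3 with array medians centred, 17 without the 3 arrays least like their groups and 19 with the replicate block. Responses that differed between numbers were 11 with medians centred, 3 with quantile normalization and 1 without Bur-0 and NFA-10, where 15 genes changed with drying (14 higher). Bur-0 and NFA-10 were picked by their shifts in these data. Number 2 alone gave 6 changed (5 higher), number 3 alone 3 (2 higher). In number 2 alone PSAD1 (-0.0113, adjusted p = 0.965) and PSBW (-0.0037, adjusted p = 0.984) turned direction. Pair differences that no longer passed (exact permutation, adjusted) were, in number 2, PSAD 0.15 (p = 0.175), PSAE 0.25 (p = 0.0521) and PETE -0.25 (p = 0.177), and in number 3, PSAD 0.0619 (p = 0.583), PSAE 0.0785 (p = 0.583) and PSBO 0.27 (p = 0.286); fewer arrays entered these fits. Of 29 pairs of wet and dry arrays that share an accession and number, 24 had deviations correlated at over 0.1 and 5 did not (range -0.20 to 0.56), and 46 of 58 arrays correlated best with their own number. Arrays of a number thus tend to deviate together, but the labels state no pairing and not every pair passed 0.1, so the reported fit has no replicate block; with the block 27 genes changed with drying (26 higher) and 28 differed among accessions. The cause of these changes was not tested. Without LHCA6 the mean LHCA shift was 0.13. The values carry no marks of background or saturation, and what an upper limit of the signal does to the brightest genes was not tested.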
